A study of Mus musculus with 18 samples.

Results

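Mouse embryonic stem cells (ESCs) with the Apc Min/Min genotype were compared with ESCs that keep a working Apc allele, either Apc +/+ or Apc Min/+. The arrays were chosen by their titles, which give 3 of the 18 arrays of the series: 1 Apc Min/Min array and 2 Apc-competent control arrays. The study set out to ask how Apc mutation affects expression in different cell types, and also profiled colon tumour cells after reprogramming (RTCs), lines derived from those, intestinal organoids, embryonic fibroblasts and S33 ESCs with or without doxycycline (dox). All values are from bulk RNA on single-colour Affymetrix arrays. With 1 array per genotype there is no replicate check and no test, and this number of arrays sets how precise any value can be.

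The labels describe all 3 lines as pluripotent stem cells. Strain, sex, passage and number of clones are not given in the sources used here, nor is whether feeder cells were used, and no source says that the lines share a background. The growth protocol gives ESCs a serum medium with LIF, and separately names Min/Min ESCs together with trophoblast stem cells (TSCs) under TS medium, a GMEM-based serum medium with recombinant FGF4 and no LIF listed. Which of these media this Apc Min/Min culture came from is not settled by its own label. If it was TS medium, genotype and medium cannot be told apart, and line and genotype cannot be told apart in any case.

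Apc is the scaffold of the complex that marks beta-catenin for destruction, and the Min allele carries a premature stop codon in it. When both copies are lost, beta-catenin is no longer degraded efficiently, enters the nucleus and acts with Tcf/Lef factors, so genes of the Wnt pathway and its own feedback inhibitors are transcribed. In mouse ESCs, Wnt/beta-catenin activity is known for supporting self-renewal and for restraining the move from the naive state to the formative and primed states that precede germ layer formation. Primitive endoderm, the extraembryonic layer that lines the blastocyst cavity, is specified by Gata6, Gata4, Sox17 and Sox7 and secretes a laminin and collagen IV basement membrane.

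A gene was called higher or lower when its log2 intensity in the Apc Min/Min array lay at least 1 unit, which is 2-fold, above or below each of the 2 control arrays. Of 11632 genes above the array median in at least 1 of the 3 arrays, 434 were called higher, which is 3.73% of those genes, and 538 were called lower, which is 4.63%. The control arrays served as the measure of noise: Apc Min/+ differed from Apc +/+ by 2-fold or more in 13 genes (0.112%) and by 4-fold in none of them. The median absolute gap between the controls was 0.14 log2 units, with a 95th percentile of 0.43 and a 99th of 0.61. The median absolute difference between Apc Min/Min and the mean of the controls was 0.35, with a 95th percentile of 1.32 and a 99th of 2.19. At 4-fold against each control, 71 genes were called higher and 63 lower. Across the genes above the filter the controls correlated at r = 0.988 and Apc Min/Min correlated at 0.900 with Apc +/+ and 0.890 with Apc Min/+, values that describe 3 arrays and carry no test.

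**Figure D1:**
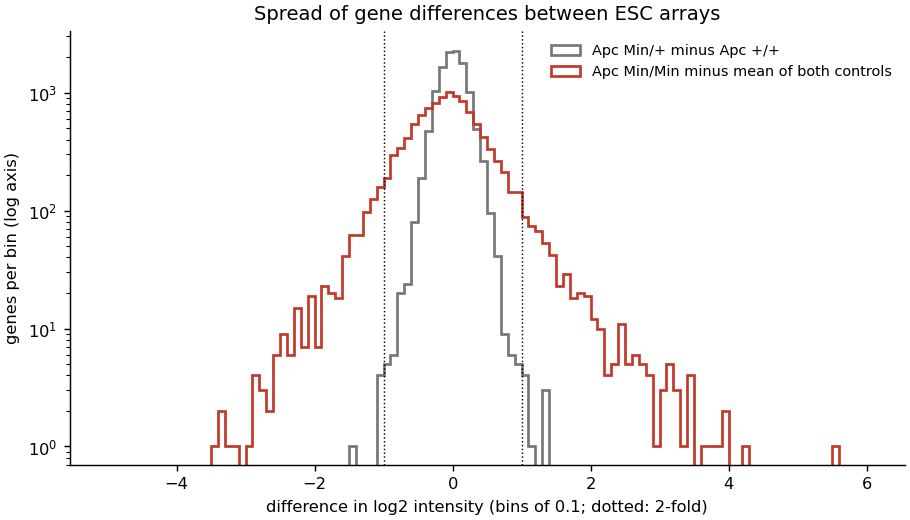
Histogram of log2 differences over 11632 genes on a log count axis, for Apc Min/+ minus Apc +/+ (grey) and Apc Min/Min minus the mean of both controls (red). The grey distribution holds 13 genes at or beyond the dotted 2-fold lines, while the red one is wider on both sides.

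Another ESC line gives a second yardstick, though the labels do not say how S33 relates to the Apc lines. S33 ESCs without dox, set against the same 2 control arrays by the same rule, gave 117 genes higher (1.01%) and 378 lower (3.25%) of 11624. Both comparisons share their controls, so their lists were not set against each other. How far differences between lines enter the Apc Min/Min calls was not tested. The scaling matters for the split: 44.7% of the calls were higher after all 18 arrays were quantile normalized together, 34.1% with each array centred on its median and 24.2% in the values as deposited. The median difference over all genes was -0.07 log2 units after normalization and -0.32 as deposited.

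Marker levels bear on what the Apc Min/Min culture held. The 7 pluripotency markers (Pou5f1, Nanog, Sox2, Zfp42, Esrrb, Dppa5a and Tdgf1) averaged 12.6 log2 units in each of the 3 arrays and none was called. Of 9 trophoblast stem cell markers 1 was higher and 3 were lower, beside 3.73% and 4.63% of all genes. Their mean was 8.46 in Apc Min/Min, 9.13 in Apc +/+, 9.11 in Apc Min/+ and 8.38 in S33 ESCs without dox. Elf5, which marks committed trophoblast stem cells, was below the array median in all 3 arrays. Fibroblast markers were above the array median in 7 of 7 cases in each array and averaged 11.3 in Apc Min/Min against 10.8 in both controls. Of the 7, Dcn and Postn were called higher, and neither was called in the values as deposited. Of 4 immune markers 2 were called higher, with a mean of 8.97 against 7.84 and 7.69, while the pan-leukocyte gene Ptprc was below the median at 6.64. In S33 ESCs without dox the fibroblast and immune marker means were 9.53 and 8.30. In bulk RNA, fewer cells of a type and less RNA per cell cannot be told apart.

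Genes of the Wnt pathway come first because Apc acts on it. The level of Apc transcript was 10.97 in Apc Min/Min, 10.25 in Apc +/+ and 10.65 in Apc Min/+. The Min allele is a point mutation, so this value does not check the genotype. Ctnnb1, which encodes beta-catenin, read 13.00, 12.77 and 12.85 in the same order. Of the 15 destruction complex genes above the filter, Axin2 alone was called, and Tcf/Lef factors and coactivators gave 0 calls of 13. Over all genes 3.73% were called higher and 4.63% lower.

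The feedback and direct target list held 28 genes on the array, of which 24 passed the filter, 8 were called higher and 1 lower, beside 3.73% and 4.63% of all genes. The median difference over the 28 was 0.62, against -0.06 over all genes on the array. Of the 24, 4 passed the filter through the Apc Min/Min array alone, and 3 of these were among the 8. The upstream sequences of 4 of the 8 genes are shown, the 250 bases before a RefSeq start site in build GRCm38.p6. Only these 4 of the 8 had a promoter given. A Tcf/Lef-type motif is the feature a reader would look for in textbook Wnt responders. Capitals mark the letters CTTTGAT or its reverse complement ATCAAAG, searched on both strands and printed 5′ to 3′ in the direction of the gene. The windows are chr11:108920099-108920348 (plus strand) for Axin2, chr2:70474673-70474922 (plus) for Sp5, chr19:30549497-30549746 (minus) for Dkk1 and chr14:61037988-61038237 (minus) for 1 of the 2 Tnfrsf19 starts in the table.
Axin2: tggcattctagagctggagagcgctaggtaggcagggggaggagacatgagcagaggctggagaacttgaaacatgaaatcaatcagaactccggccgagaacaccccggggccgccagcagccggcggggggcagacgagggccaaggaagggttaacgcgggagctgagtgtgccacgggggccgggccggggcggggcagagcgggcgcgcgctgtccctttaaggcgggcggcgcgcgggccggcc
Sp5: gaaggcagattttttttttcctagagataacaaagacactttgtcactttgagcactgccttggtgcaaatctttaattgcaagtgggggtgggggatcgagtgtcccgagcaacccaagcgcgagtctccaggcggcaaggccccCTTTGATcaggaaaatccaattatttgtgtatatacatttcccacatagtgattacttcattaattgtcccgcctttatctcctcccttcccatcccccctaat
Dkk1: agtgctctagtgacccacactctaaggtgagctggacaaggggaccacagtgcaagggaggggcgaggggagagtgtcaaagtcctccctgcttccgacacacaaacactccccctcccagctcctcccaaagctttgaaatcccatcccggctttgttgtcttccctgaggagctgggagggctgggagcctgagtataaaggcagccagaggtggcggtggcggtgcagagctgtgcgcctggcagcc
Tnfrsf19: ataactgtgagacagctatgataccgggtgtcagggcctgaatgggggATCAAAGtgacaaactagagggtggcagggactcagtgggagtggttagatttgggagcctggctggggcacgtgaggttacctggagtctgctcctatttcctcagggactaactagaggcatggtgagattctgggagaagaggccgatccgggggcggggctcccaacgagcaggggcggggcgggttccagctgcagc

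Sp5 carried the motif 104 bases before its start and this Tnfrsf19 start carried it at 202 bases. The other Tnfrsf19 start, at chr14:61046856-61047105, had no match. The Axin2 and Dkk1 windows held no match, which says only that these letters are absent from these bases. A match was found in 3.72% of the 27025 genes with a promoter given, in 2.90% of those above the filter, in 4.0% of 300 genes called higher and in 2.58% of 427 called lower. A second motif, AGATAA or TTATCT, to which Gata factors bind, was found in 11.4% of all genes in the table, 6.74% of those above the filter, 11.3% of the 300 higher and 6.09% of the 427 lower. A match is a description of letters, not a binding site.

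Axin2, the feedback scaffold of the destruction complex, read 10.90 in Apc Min/Min against 8.41 in Apc +/+ and 8.61 in Apc Min/+, a 5.23-fold difference from the control mean with a control gap of 0.20. Dkk1, a secreted inhibitor that blocks the Lrp5 and Lrp6 co-receptors, read 11.91 against 8.43 and 7.99, or 12.96-fold. These were the farthest from the controls of the list. Sox9 (10.51 against 8.73 and 8.85) encodes a transcription factor of intestinal progenitors, and Tnfrsf19 (9.81 against 8.32 and 7.93) a Wnt-induced receptor of the TNF family.

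The other called members lay closer to the threshold. Lgr5, the R-spondin receptor that marks intestinal stem cells, read 8.32 against 7.01 and 6.74, and in both controls it was below the array median of 7.93. Sp5, a Wnt-induced repressor, read 8.65 against 7.21 and 7.44. Cdx1, a caudal homeobox factor, read 9.31 against 7.86 and 8.13, and Notum, an enzyme that removes the lipid of Wnt ligands, 8.96 against 7.87 and 7.62. In S33 ESCs without dox, Sp5 read 8.24, Cdx1 8.90, Tnfrsf19 8.99 and Notum 8.07, so for these 4 genes the Apc Min/Min level was within 2-fold of another ESC line. Axin2 (9.14), Dkk1 (7.88), Sox9 (8.94) and Lgr5 (6.72) stayed more than 2-fold lower there.

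Ascl2, a Wnt target in intestinal stem cells that is also needed in trophoblast, went the other way and fell to 7.61 from 9.68 and 9.67. The remaining feedback genes were not called: Znrf3 and Rnf43, the ligases that remove Frizzled receptors, read 10.46 against 9.48 and 9.67 and 7.98 against 6.99 and 7.44. Lef1 read 9.27, 9.08 and 9.16, Nkd1 8.61, 8.15 and 8.37, and Myc 11.50, 10.72 and 10.68. Ccnd1, often named as a target, read 12.07 against 12.80 and 12.55. As deposited Cdx1 was not called, and with S33 ESCs as an added control Sp5, Cdx1, Notum, Tnfrsf19 and Ascl2 were not, which left 4 higher and 0 lower.

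**Figure D2:**
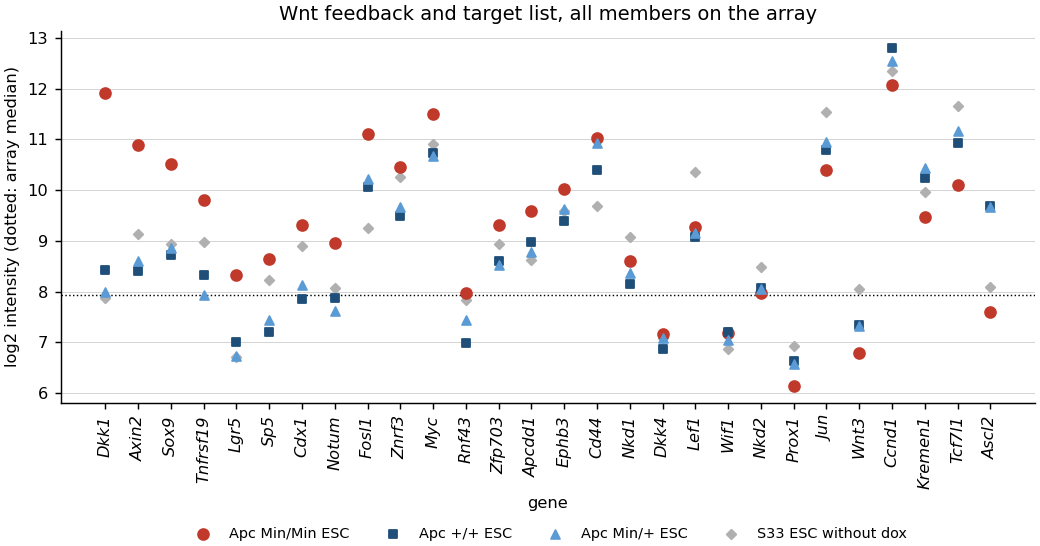
Log2 intensity of the 28 Wnt feedback and target genes on the array, ordered by the difference from the control mean, in Apc Min/Min (red), Apc +/+ and Apc Min/+ (blues) and S33 ESCs without dox (grey); the dotted line is the array median. Red points stand apart at Dkk1 and Axin2 and lie below the controls at Ascl2.

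Among receptors and ligands, 23 of 31 genes passed the filter, 2 were higher and 1 lower, beside 3.73% and 4.63% of all genes. Of the 23, 2 passed through the Apc Min/Min array alone, and 1 of these was called higher. Wnt11, a ligand of the beta-catenin-independent branch, read 9.15 against 7.41 and 7.53, and the receptor Fzd6 read 9.51 against 8.01 and 7.93. Wnt7b fell to 7.36 from 9.62 and 9.53. Of secreted Wnt antagonists only Dkk1 and Notum were called among 9 above the filter, both higher, and Notum passed it only through Apc Min/Min.

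The Wnt genes can be set beside 2 comparisons that use none of these 3 arrays. The list was drawn up with earlier results of this series known, so its counts in these 2 comparisons are a description. RTCs, which are colon tumour cells reprogrammed by iPSC technology, were compared with their derivatives (3 arrays against 2), calling a gene where the means lay 2-fold apart and the groups did not overlap. That gave 176 genes higher (1.51%) and 152 lower (1.31%) of the 11632, among them 7 higher and 1 lower of the 24 Wnt list genes. Axin2 read 10.57, 10.44 and 10.41 in the RTC arrays and 8.26 and 8.72 in the derivatives, so the groups did not overlap and the RTC values were near the 10.90 of Apc Min/Min. Sp5 read 9.04, 9.20 and 9.20 against 7.40 and 7.52. The series text speaks of inducing a mutant beta-catenin in these cells, and S33 ESCs with against without dox (1 array each, with no dose or time given) gave 111 genes higher (0.954%) and 221 lower (1.9%). There Axin2 read 9.35 with dox and 9.14 without, Dkk1 8.46 and 7.88, and 0 of the 24 list genes were higher by 2-fold while 3 were lower.

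The caudal and primitive streak list held calls in 1 direction after joint quantile normalization. Nkx1-2, a homeobox gene of the caudal epiblast, rose to 10.65 from 7.25 and 7.17, a 10.86-fold difference. Cdx2, the caudal factor that also specifies trophectoderm, rose to 9.48 from 7.04 and 7.10. With Cdx1, Sp5, Pdgfra and Tbx3 this made 6 higher and 0 lower among 16 genes above the filter, beside 3.73% and 4.63% of all genes. Of the 6, 3 passed the filter only through Apc Min/Min. The median difference over the 33 genes on the array was 0.15, against -0.06 over all genes. As deposited the list gave 4 higher and 1 lower, and with median centring 5 and 1. Cdx1 and Sp5 are also in the Wnt list, Pdgfra in the primitive endoderm list and Tbx3 among the naive genes. In the RTC arrays Nkx1-2 read 10.17, 10.57 and 10.53 against 7.98 and 7.68 in the derivatives, and Cdx2 read 8.34, 8.98 and 9.12 against 6.88 and 7.21. Cyp26a1, which degrades retinoic acid in the caudal embryo, rose to 9.74 from 6.39 and 6.75. Hox cluster genes gave 0 calls among 14 above the filter.

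Primitive endoderm genes made up the largest group of calls among the lists with more than 10 members above the filter. Of 29 on the array 24 passed the filter, and 16 were called higher and 0 lower, beside 3.73% and 4.63% of all genes. The median difference over the 29 was 1.17, against -0.06 over all genes on the array. Of the 24, 4 passed through the Apc Min/Min array alone, and 3 of those were among the 16.

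The lineage-specifying transcription factors were farthest from the controls. Sox17 read 10.93 in Apc Min/Min against 6.70 in Apc +/+ and 6.60 in Apc Min/+, a 19.45-fold difference, and was below the array median in both controls. Gata4 read 11.60 against 8.07 and 8.28, or 10.74-fold. Gata6 read 11.65 against 8.17 and 8.84, or 8.82-fold, with a control gap of 0.67. Sox7 (9.15 against 7.59 and 7.91) and Foxa2 (8.73 against 7.59 and 7.63) rose less. Hnf4a, a factor of the visceral branch, was not called at 8.22 against 7.64 and 7.31.

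Receptors and endocytic proteins were called in part. Pdgfra, the receptor that marks primitive endoderm precursors, read 11.53 against 9.32 and 9.63. Cubn, the cubilin receptor of the yolk sac, read 10.74 against 7.83 and 8.73, and its partner Lrp2 (megalin) 9.67 against 7.98 and 8.16, whereas Amn, the anchor of cubilin, read 7.83, 7.76 and 7.96. Dab2, the endocytic adaptor, lay just under the threshold at 11.91 against 10.84 and 10.92. Lrp2 was higher still in S33 ESCs without dox, at 10.40.

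Laminin and collagen IV genes were read next. Lama1 read 12.19 against 9.31 and 9.68, Lamb1 12.05 against 10.75 and 10.73, and Lamc1 12.49 against 11.32 and 11.31, which are the chains of laminin-111. The collagen IV genes Col4a1 and Col4a2 read 10.63 against 8.89 and 8.85 and 10.56 against 8.75 and 8.85. Sparc, abundant in parietal endoderm, read 13.65, 13.52 and 13.52 and was not called. Thbd (thrombomodulin) rose to 11.68 from 9.82 and 9.83, Srgn (serglycin) to 12.82 from 9.98 and 10.54, and Cited1 to 11.18 from 8.73 and 9.24. Markers of mature visceral endoderm stayed under the array median of 7.93: Afp read 6.11, 6.19 and 6.51 and Apoa1 7.62, 7.64 and 7.72. The calls of Sox7, Foxa2, Lamb1 and Lamc1 were lost in the values as deposited, and those of Foxa2, Lamc1 and Lrp2 with S33 ESCs as an added control.

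**Figure D3:**
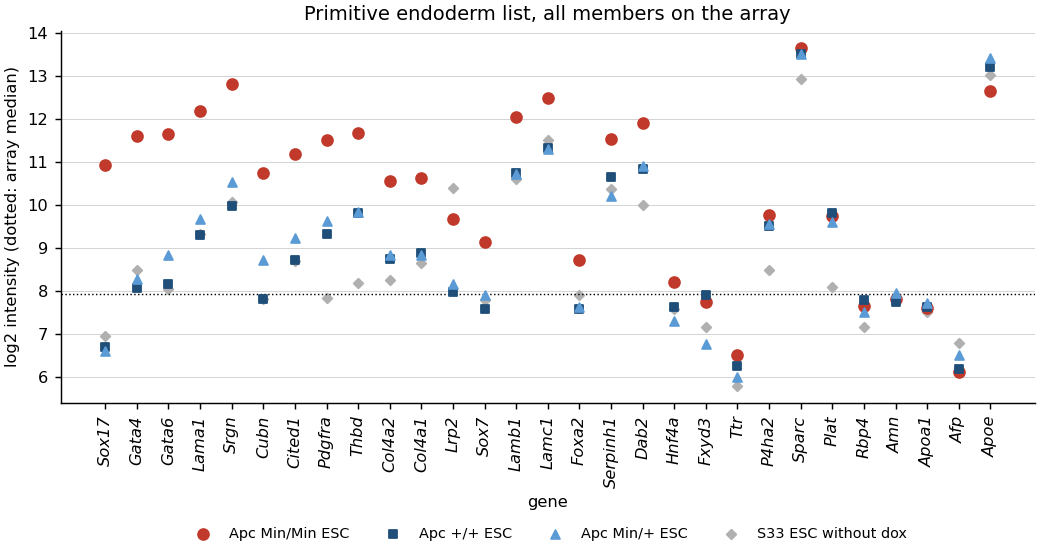
Log2 intensity of the 29 primitive endoderm genes on the array, ordered by the difference from the control mean, with symbols for Apc Min/Min (red), both controls (blues) and S33 ESCs without dox (grey) and a dotted line at the array median. The 16 called genes lie on the left with red points at least 1 unit above both blue points, and Afp and Apoa1 lie on the right below the median.

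The mean of the 7 fibroblast markers was also higher in the Apc Min/Min array, though 2 of them were called and neither as deposited. The called endoderm genes were therefore read in 3 fibroblast arrays of the series without 4-OHT or dox. Of the 16 primitive endoderm genes called higher, 14 were higher in Apc Min/Min than in each of the 3 fibroblast arrays, the exceptions being Pdgfra and Col4a2. Called genes were chosen for being high in Apc Min/Min, and no share over all genes was computed. This count and the Wnt count below are therefore a description. Sox17 read 6.35, 6.54 and 6.84 in the fibroblasts, Lama1 7.41, 7.64 and 7.77, and Cubn 7.64, 7.55 and 7.45. Lamb1 (11.48, 11.51 and 11.85), Lamc1 (11.79, 11.56 and 11.72), Thbd (11.42, 11.67 and 10.67) and Col4a1 (10.21, 9.96 and 10.60) were nearly as high in fibroblasts as in Apc Min/Min. The part of fibroblast RNA in their calls was not tested. Of the 8 Wnt genes called higher, 6 were above each fibroblast array, with Lgr5 and Sox9 the exceptions.

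Some of the same endoderm genes were also higher in arrays outside the comparison. With dox, S33 ESCs read 10.13 for Gata6 against 8.06 without, 9.51 against 8.49 for Gata4, 10.79 against 9.33 for Lama1, 10.40 against 7.82 for Cubn and 12.00 against 10.09 for Srgn. Those 5 of the 24 list genes were higher by 2-fold and 1 (Lrp2) was lower, beside 0.954% and 1.9% of all genes. This list too was drawn up with earlier results of this series known, so the count is a description. Sox17 read 7.24 with dox and 6.96 without. In the RTC arrays Gata6 read 8.24, 10.19 and 9.83 against 9.04 and 8.68 in the derivatives, so the groups overlapped, and Sox17 read 6.54, 9.01 and 8.10 against 6.98 and 6.67, which also overlapped. Cited1 (10.75, 11.10 and 11.40 against 8.87 and 8.38) and Lama1 (10.07, 11.01 and 10.26 against 9.50 and 9.00) did not overlap.

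General pluripotency genes were close to the controls. Of 32 naive and general genes, all of them above the filter, 2 were higher and 2 lower, beside 3.73% and 4.63% of all genes. Their median difference was -0.03. Pou5f1 (Oct4) read 12.91, 13.00 and 13.00, Nanog 13.38, 13.27 and 13.32, and Sox2 12.47, 12.58 and 12.77. Tbx3 rose to 11.81 from 10.46 and 10.78 and Nr5a2 to 11.88 from 10.68 and 10.59, both encoding transcription factors of the naive network, though neither was called as deposited. Dppa3 (Stella), a maternal factor that protects DNA methylation marks in the zygote, fell to 6.99 from 9.37 and 9.80, and the chromatin factor Utf1 to 12.12 from 13.36 and 13.51. Eras, an ESC-expressed Ras protein, fell to 6.45 from 9.12 and 9.08.

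Formative and primed genes were called in 1 direction. Of 22 on the array 18 passed the filter, and 0 were higher and 8 lower, beside 3.73% and 4.63% of all genes, with a median of -0.56 over the 22. Otx2, a driver of the formative state, read 7.68 against 10.79 and 10.57, a 7.99-fold difference that took it below the array median. Zic5 (9.15 against 11.08 and 11.07) and Zic2 (9.03 against 10.49 and 10.61) encode zinc finger factors of the epiblast. Grhl2, which opens epithelial enhancers at this step, read 7.60 against 9.08 and 9.19, the tight-junction gene Cldn6 10.72 against 12.52 and 12.56, and the kinase gene Pim2 9.40 against 10.70 and 10.51. The classic primed marker Fgf5 was below the array median in all 3 arrays, at 7.32, 7.75 and 7.82.

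The de novo DNA methyltransferases belong to the same group. Dnmt3a read 8.60 against 10.02 and 10.07, and Dnmt3b 9.66 against 11.04 and 10.91. Uhrf1, which recruits the maintenance enzyme, read 10.63 against 11.64 and 11.86, while Dnmt1 itself and Tet1 were not called and Dnmt3l read 12.64, 12.73 and 12.71. Altogether 3 of 11 writers and erasers were lower and 0 higher, beside 4.63% and 3.73% of all genes. Uhrf1 was not called with the 3 ESC arrays normalized alone.

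**Figure D4:**
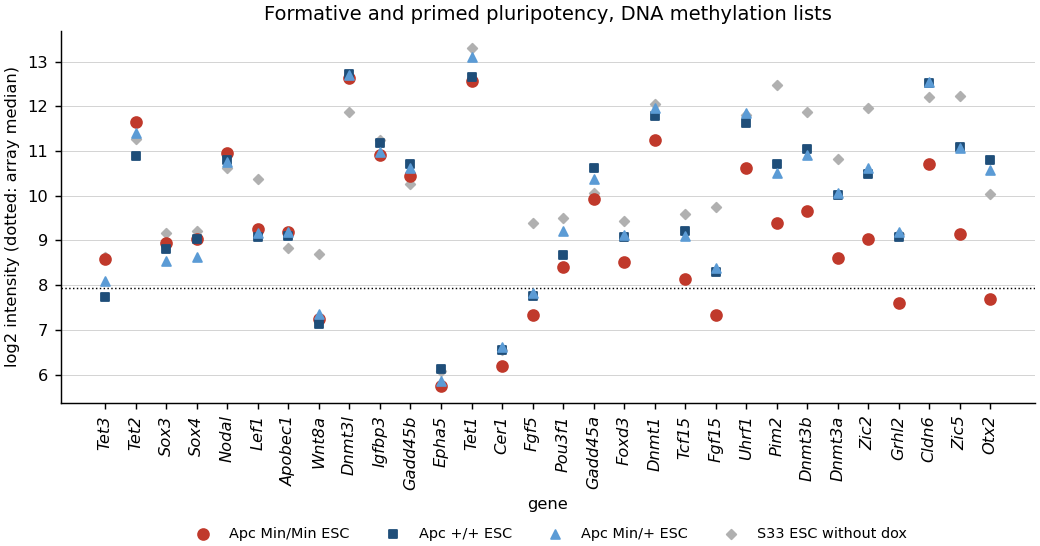
Log2 intensity of the formative, primed and DNA methylation genes on the array, ordered by the difference from the control mean, in Apc Min/Min (red), both controls (blues) and S33 ESCs without dox (grey), with the array median dotted. Red points lie below both blue points on the right, from Uhrf1 to Otx2, and near them on the left.

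Of the early neural differentiation genes 28 were on the array and 16 passed the filter, with 8 called lower and 0 higher, beside 4.63% and 3.73% of all genes. The list shares Otx2 and Zic2 with the primed list. Ina, a neuronal intermediate filament gene, read 8.02 against 11.50 and 11.21, or 10.12-fold lower. Crmp1 read 7.56 against 10.44 and 10.45, and the proneural factor Neurod1 6.16 against 8.81 and 9.28. Tubb3 (7.09 against 8.36 and 8.15), Map2 (7.65 against 9.00 and 8.81) and Elavl3 (7.47 against 8.82 and 9.02) were nearer to the threshold. The median over the 28 was -0.50.

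Nodal pathway genes split. Lefty1, the secreted inhibitor that Nodal signalling induces, fell to 7.80 from 10.56 and 10.60, and Lefty2 to 7.86 from 9.43 and 9.50. Nodal itself read 10.96, 10.80 and 10.75, its co-receptor gene Tdgf1 13.53, 13.53 and 13.56, and Inhbb fell to 8.27 from 9.65 and 9.52. Inhba, the activin A subunit, rose to 13.02 from 11.15 and 11.35, and the activin inhibitor Fst to 11.71 from 10.35 and 10.22. Both are abundant in the fibroblast arrays, where Inhba read 12.81, 12.66 and 12.65 and Fst 11.43, 11.06 and 11.03, and the part of fibroblast RNA was not tested. Inhbb was not called with S33 ESCs as an added control.

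Some of the lower genes also read low in RTCs. Otx2 read 7.38, 6.85 and 6.87 in RTCs against 10.98 and 9.06 in the derivatives, and Lefty1 7.87, 7.70 and 7.57 against 12.04 and 11.51. Zic2 (8.77, 8.64 and 8.84 against 11.38 and 11.65), Ina (7.07, 7.67 and 7.79 against 10.69 and 10.66) and Neurod1 (6.82, 6.73 and 6.90 against 9.64 and 10.22) did not overlap either. Of the 18 primed genes 4 were lower and 1 higher in RTCs, and of the 16 neural genes 7 were lower and 0 higher. Over all genes 1.31% were lower and 1.51% higher there. The lists were drawn up with results of the RTC arrays known, so these counts are a description. With dox in S33 ESCs, Dnmt3b read 10.39 against 11.87 without, Pim2 9.97 against 12.47, Lefty1 10.38 against 12.13 and Ina 10.76 against 12.12, while Neurod1 was higher at 9.71 against 7.72. With dox 6 of the 18 primed genes were lower and 0 higher, beside 1.9% and 0.954% of all genes.

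Over all calls, 65 of the 434 higher genes (15.0%) were also higher in RTCs than in derivatives, which is 36.9% of that comparison's 176, and 0 were lower. Of the 538 lower genes 79 (14.7%) were lower in RTCs, or 52.0% of its 152, and 6 were higher. For S33 ESCs with against without dox, 30 of the 434 (6.91%, and 27.0% of the 111) were higher and 24 lower. Of the 538, 40 (7.43%, and 18.1% of the 221) were lower and 7 higher. Against backgrounds of 1.51% and 1.31%, the shares in RTCs were higher. In S33 ESCs the same-direction shares of 6.91% and 7.43% also lay above their backgrounds of 0.954% and 1.9%. The opposite-direction shares there were 5.53% of the 434, beside 1.9% of all genes, and 1.30% of the 538, beside 0.954%.

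Trophoblast genes were examined because of the TS medium. Of 39 on the array 30 passed the filter, 3 were higher and 6 lower, beside 3.73% and 4.63% of all genes, with a median over the 39 of -0.28. Of the 3 higher genes 2 passed the filter only through Apc Min/Min. Besides Cdx2, Tfap2a rose to 8.98 from 7.60 and 7.69 and the keratin gene Krt8 to 12.87 from 11.76 and 11.54. The trophectoderm factor Gata3 fell to 6.63 from 9.08 and 8.93, Tfap2c to 9.34 from 10.86 and 10.87, Esx1 to 6.90 from 8.57 and 8.57 and the X-linked Rhox9 to 8.97 from 11.62 and 11.27, together with Ascl2 and Wnt7b. Eomes, a factor of trophoblast stem cells, read 9.60, 9.68 and 9.76, Hand1 8.08, 9.06 and 9.02, and Elf5 6.59, 7.02 and 6.83. With S33 ESCs as an added control, Esx1 (7.56 there), Rhox9 (9.15), Ascl2 (8.09) and Krt8 (12.49) were not called, and Krt8 was not called as deposited either.

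The lists that follow the cytokines of the 2 media were read beside 3.73% higher and 4.63% lower calls over all genes. Of 15 LIF and Stat3 responsive genes 0 were higher and 2 lower, Pim3 (10.34 against 11.41 and 11.45) and Bcl3 (9.88 against 10.91 and 11.11), and the feedback inhibitor Socs3 read 10.88, 10.66 and 10.58. Pim3 was not called with S33 ESCs as an added control, nor Bcl3 with the 3 ESC arrays normalized alone. Of 24 FGF and ERK feedback genes above the filter 3 were higher and 1 lower. Spry4 rose to 12.36 from 10.75 and 11.20, Dusp4 to 10.77 from 9.41 and 9.67 and Dusp5 to 10.81 from 9.69 and 9.80, all of them inhibitors induced by ERK signalling, while Etv1 fell to 8.34 from 10.03 and 10.07. The calls of Dusp4, Dusp5 and Spry4 were lost as deposited, with arrays centred on their median and with S33 ESCs as an added control. Fgf4 transcript read 11.46 against 12.43 and 12.86 and was not called.

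Early-embryo and germline genes were examined next. Of 11 early-embryo genes on the array 8 passed the filter and 7 were called, and those 7 passed it only through Apc Min/Min, so their number says nothing beyond their values. Gm5662 read 10.05 against 7.26 and 5.85, a control gap that is itself above 2-fold, Obox6 10.04 against 7.74 and 7.53, Tdpoz3 8.48 against 5.63 and 5.66, and Zfp352 8.74 against 6.38 and 6.73. Pramel19 (15.87-fold) and Pramel20 (9.27-fold) belong to a family of near-identical copies whose probes may not separate them. Of 19 germline genes above the filter 7 were higher and 2 lower, beside 3.73% and 4.63% of all genes, and 4 of the 7 passed it only through Apc Min/Min. Dazl, an RNA-binding protein of germ cells, rose to 11.14 from 8.32 and 8.81, the meiotic gene Sycp1 to 9.18 from 7.84 and 7.40, Piwil2 to 10.31 from 8.88 and 9.03 and Tex19.1 to 10.05 from 8.91 and 8.32. Germline promoters of this kind are known to be silenced by DNA methylation, which was not measured here.

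Imprinted genes, which are expressed from 1 parental copy, went in both directions, with 3 higher and 4 lower of 20, beside 3.73% and 4.63% of all genes. Plagl1 rose to 12.01 from 9.01 and 9.12, Airn to 10.87 from 8.31 and 8.48 and Meg3 to 11.53 from 9.97 and 9.75. Phlda2, a maternally expressed brake on placental growth, fell to 10.34 from 13.05 and 13.10, Slc38a4 to 10.59 from 11.82 and 12.37 and Mest to 10.27 from 11.40 and 11.49. Phlda2 read 13.29 in S33 ESCs without dox and 12.67 to 12.97 over the RTC arrays, all above the Apc Min/Min value. Plagl1 read 11.42, 12.06 and 12.32 in fibroblasts, and Mest was 7.52 in S33 ESCs, below the Apc Min/Min value, so its call was lost with that array as an added control.

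Of 26 epithelial genes above the filter, 1 was called higher and 9 lower, beside 3.73% and 4.63% of all genes. Rab25, an apical recycling GTPase, read 7.51 against 10.24 and 10.50, the membrane protease Prss8 8.08 against 10.56 and 10.56, Cldn4 10.18 against 12.54 and 12.68, Cldn3 7.58 against 9.16 and 9.57, and the splicing regulator Esrp1 9.24 against 11.25 and 11.35. Tjp3, Spint1, Grhl2 and Cldn6 completed the 9, of which Spint1 was not called with S33 ESCs as an added control. Of 19 mesenchymal transition genes above the filter 0 were higher, and Snai2 (8.57 against 10.21 and 9.99) and S100a4 (8.63 against 10.92 and 10.87) were lower. Both read as low in S33 ESCs without dox, at 8.56 and 7.91, and lost their calls with that added control.

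BMP genes included 1 of the largest rises. Bmp2 rose to 11.31 from 8.14 and 8.14, or 8.98-fold, and Id3, a target of BMP signalling, to 10.15 from 9.09 and 9.08. The antagonist Grem1 fell to 10.53 from 11.98 and 11.93 and Bmp8b to 7.59 from 8.65 and 8.64. Fibroblasts read 7.56, 9.67 and 8.04 for Bmp2, below Apc Min/Min, and 11.38, 10.89 and 10.87 for Id3, above it. Id3 was not called as deposited, with median centring or with S33 ESCs as an added control, and Grem1 was not called with that control.

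The largest single rise over all genes was Kcnma1, the pore of the BK potassium channel, at 11.78 against 6.43 and 6.08, a 46.2-fold difference. It was not low everywhere else, reading 8.79 to 9.62 in RTCs and 8.38 and 9.46 in derivatives. Enpep, a membrane aminopeptidase, read 10.33 against 6.22 and 6.60, the nuclear receptor gene Nr4a3 10.18 against 6.13 and 6.61, the heparan sulfate enzyme gene Hs3st1 10.98 against 7.51 and 7.46, and the water channel gene Aqp8 10.24 against 6.81 and 6.89. Fgl2, S100g, Flvcr2, Gm7982 and Mir505 were the others among the 20 largest rises.

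The largest fall was Enpp3, an ectonucleotidase, at 8.75 against 12.02 and 12.31, or 10.7-fold lower. It also read low in RTCs, at 8.59, 9.14 and 8.69 against 12.09 and 12.36 in derivatives. Gng3, a G protein subunit gene of neurons, read 7.36 against 10.35 and 11.01, Pipox, which oxidises pipecolic acid, 7.74 against 11.14 and 10.76, and Hsd17b14, a steroid dehydrogenase gene, 8.31 against 11.28 and 11.58. Ttpa, the vitamin E transfer protein, read 5.59 against 8.60 and 8.36. Mcpt8, Col10a1 and Sema3c were also among the 20 largest falls, but their values in S33 ESCs (7.05, 7.80 and 8.07) lay within 2-fold of Apc Min/Min, and their calls were lost with that added control. Rasgrp2, Wfdc2 and Map7d3 completed the 20.

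The metabolic lists had negative medians, from -0.16 for oxidative phosphorylation to -0.52 for choline, glycine and threonine catabolism genes. Their counts stand beside 3.73% higher and 4.63% lower calls over all genes. Choline, glycine and threonine catabolism had 1 higher and 5 lower of 13: Gldc, of the glycine cleavage system, fell to 10.68 from 12.11 and 12.25, Gcat to 8.83 from 9.99 and 10.04, Shmt2 to 10.96 from 12.10 and 12.17 and Amt to 10.52 from 11.67 and 11.61, with Pipox, while Dmgdh rose to 8.47 from 6.47 and 6.62. All 24 sterol and fatty acid synthesis genes had values below the controls' mean, with a median of -0.42, but 3 were called: Mvd (8.52 against 10.28 and 10.09), Mvk (9.06 against 10.23 and 10.43) and Dhcr7 (9.44 against 10.48 and 10.55). Oxidative phosphorylation genes gave 0 calls of 27. Of 25 glycolysis and hypoxia genes, Vegfa was higher at 12.16 against 10.55 and 10.69, and Egln3 (9.94 against 12.08 and 12.39), Bnip3 and Ndrg1 were lower. Vegfa was not called as deposited, and Amt, Mvk, Bnip3 and Ndrg1 were not with S33 ESCs as an added control.

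The next 4 lists were read beside 3.73% higher and 4.63% lower calls over all genes. Cell cycle genes had a median of -0.43 with 3 lower and 0 higher of 31. Ccne1 fell to 10.84 from 12.69 and 12.48, the replication licensing factor Cdt1 to 11.12 from 12.18 and 12.25 and the inhibitor Cdkn2b to 7.96 from 10.02 and 9.98. The p53 target list had 2 higher and 1 lower of 23, Pmaip1 and Plk2 rising and Ddit4 falling, and neither rise was called as deposited. In the amino acid stress list of 22, Atf3 rose to 10.81 from 8.53 and 8.13 and Slc7a11 to 8.46 from 7.18 and 6.91, while Chac1, Stc2, Slc7a3, Shmt2 and Ddit4 fell. Slc7a11 passed the filter only through Apc Min/Min. Atf3 read 10.55 in S33 ESCs without dox and, like Cdkn2b (8.72), was not called with that array as an added control. Interferon response genes gave 4 lower and 0 higher of 17, with Ifitm1 at 11.28 against 12.78 and 13.11, and Irf7 and Usp18 were not called with S33 ESCs as an added control.

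Fibroblast, immune, YAP-responsive and sex-linked genes were read as well, beside 3.73% higher and 4.63% lower calls over all genes. Of 25 fibroblast and matrix genes above the filter 3 were higher: Dcn (12.23 against 11.10 and 11.02), Postn (12.31 against 11.15 and 11.26) and Timp3 (13.27 against 11.67 and 11.86). Each of the 3 was higher still in the fibroblast arrays, and none of them was called in the values as deposited. The myeloid genes Lyz2 (10.59 against 7.77 and 8.08), Fcer1g and Tyrobp were higher among 9 above the filter of 24 on the array, and 2 of the 3 passed the filter only through Apc Min/Min. Of YAP-responsive genes Ankrd1 alone was higher, of 20, at 9.76 against 8.64 and 8.68, and it was not called as deposited, with median centring or with S33 ESCs as an added control. Xist rose to 10.00 from 8.49 and 8.75 and the Y-linked Zfy1 to 9.32 from 7.01 and 7.58, so Xist was above the array median in all 3 arrays and Zfy1 in Apc Min/Min alone. Xist was not called as deposited.

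**Figure D5:**
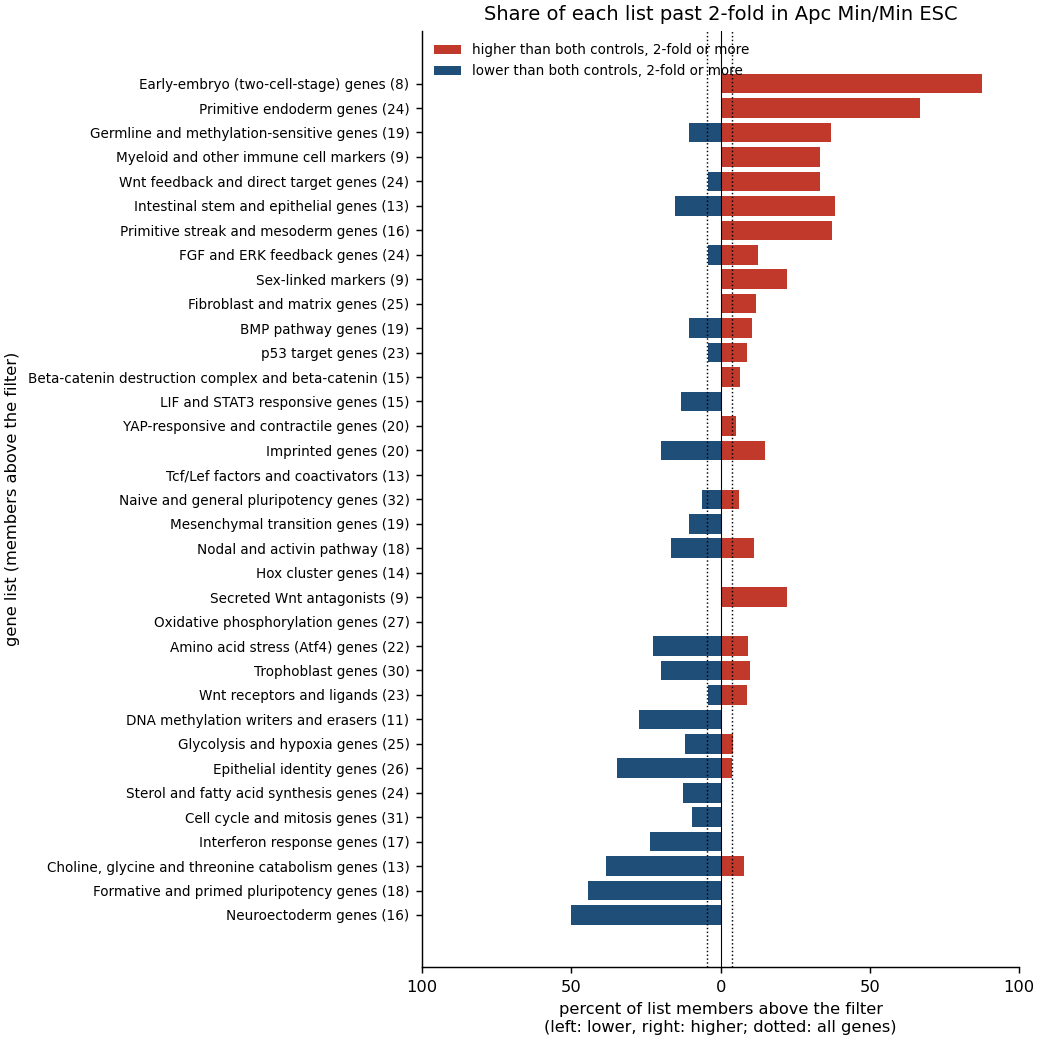
Share of each list's members above the filter that were called higher (red, to the right) or lower (blue, to the left), lists ordered by median difference, with the number of members above the filter in parentheses and dotted lines at 3.73% and 4.63%, the shares over all genes. Early-embryo and primitive endoderm lists extend farthest to the right and neuroectoderm farthest to the left; early-embryo members passed the filter only through Apc Min/Min.

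Small RNA genes were read separately. Of 113 microRNA, snoRNA and scaRNA genes above the filter 37 were higher and 0 lower, beside 3.73% and 4.63% of all genes. Their median difference was 0.92, against -0.07 over all genes above the filter. The 49 snoRNA genes had a median level of 10.68 in Apc Min/Min against 9.81 and 9.49 in the controls, and 22 were higher. The 61 microRNA genes had a median level of 8.61 against 7.96 and 7.85, with 14 higher. Without them the counts were 397 higher and 538 lower. The same 113 genes had median levels of 8.60 in S33 ESCs without dox and 8.21 to 8.98 over the RTC arrays. Some of the 113 passed the filter only through Apc Min/Min, such as Mir505 (7.30 and 7.08 in the controls). How many did so was not counted. The number of calls and the median difference therefore rest in part on the filter.

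Where a gene had a second probe set, that probe set gave a partly separate reading. For 18 genes called higher the second probe set lay in the same direction in 17 and past 2-fold of the control mean in 12. For 17 genes called lower it lay in the same direction in 15 and past 2-fold in 12. The median difference of second probe sets was 1.23 for the genes called higher and -1.52 for those called lower. Over all 666 genes above the filter with a second probe set it was 0.02. By chromosome, median differences ran from -0.15 on chromosome 7 to 0.04 on chromosome 18 among the autosomes, with -0.07 on X and 0.91 over the 5 genes on Y. Chromosome X held 5.99% higher and 8.99% lower calls of 367 genes and chromosome 7 held 7.20% lower calls, beside 3.73% and 4.63% over all genes.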

How the data were processed

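Each sample was 1 Affymetrix array. Per the labels' protocols, RNA came from a kit extraction and carried biotin after enzymatic fragmentation. The values deposited by the authors are linear intensity values for 28856 probe sets, and the background correction, summarisation and scaling behind them are not given in the sources used here. Identical values occurred in 17.3% of probe sets between Apc Min/Min and Apc +/+ and in 0% between either and Apc Min/+, and the median deposited intensity ran from 142 to 317 over the 18 arrays, so the arrays do not share 1 scale. Here log2 values of all 18 arrays were quantile normalized together (Python 3.11.15, numpy 2.4.6, pandas 2.3.3). Probe sets with 1 symbol in the platform annotation (21789) gave 19938 genes, each read from its brightest probe set. A gene was kept if it lay above the array median (percentile 50) in at least 1 of the 3 arrays and called at 2-fold against each control. Scripts were checked on simulated data. The text names Pou5f1, Nanog, Cdx2, Lgr5, Axin2, Ctnnb1 and Apc, the 20 largest rises and falls and called list members; other members of the 35 lists are named for context after their values were seen. Members and lists were chosen with earlier results of these data known. Promoter letters are RefSeq's, build GRCm38.p6, and chromosome 18 was left out of the motif search.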

Additional observations from a re-analysis of the deposited data

How the results depend on the processing

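With the values as deposited, 267 genes were higher and 837 lower, and medians of list members above the filter became 0.52 for Wnt feedback, -0.25 for naive, -1.26 for primed, -0.50 for trophoblast and -1.34 for neuroectoderm genes. Without a filter the medians were -0.56 for primed, 1.17 for primitive endoderm and -0.50 for neuroectoderm genes. A 1.5-fold threshold gave 1080 and 1623 genes, and a 4-fold threshold 71 and 63. Keeping only genes above the median in a control array, an alternative chosen after seeing the data, gave 269 higher. Leaving out 1 control array gave 524 to 563 higher and 644 to 775 lower genes, since a gene then had 1 array to pass. Mest turned to 0.13 with S33 ESCs as an added control. Of 161 named called genes, 21 lost the call as deposited (Cdx1, Foxa2, Lamb1, Lamc1, Sox7, Tbx3, Nr5a2 and Xist among them), 9 with median centring, 8 with the 3 ESC arrays normalized alone, 22 with a filter on the mean (Lgr5, Sp5 and Cdx2 among them) and 34 with S33 ESCs as an added control (Foxa2, Lamc1, Lrp2, Sp5, Cdx1, Notum and Tnfrsf19 among them). None lost it with probe sets averaged or with 1 control array left out. With a control left out a call can be lost only through the filter. Leaving out the filter cannot remove a call, so it checks none. No paired analysis was possible because each ESC genotype has 1 array.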
